A study of Mus musculus with 8 samples.

Results

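The genes described here are 7 transport and metabolic genes of the ciliary and retinal pigment epithelia, Best1, Best2, Gsta3, Slc13a4, Aqp1, Ttr and Kcnj13, in RNA-seq of whole mouse retina with and without the splicing regulator Rbfox2. They were chosen by name, as 7 of the 17500 genes in the count table, and all 7 passed the filter on low counts, which kept 16797 genes. Best2, Gsta3 and Slc13a4 were among the genes that the study itself picked from its sequencing of these same mice for PCR, so their direction here is not independent evidence. The Rbfox2-/- group (n = 4, mice M893, M901, M902 and M909) carried Rbfox2 fl/fl, in which the floxed part is excised by Cre, and a Cre-ERT2 transgene driven by the ubiquitin C promoter, which tamoxifen activates in many tissues and not only in the retina. The control group (n = 4, mice M833, M894, M896 and M898) was age-matched and heterozygous, Rbfox2 fl/+, on the same C57BL/6J background. By the labels all mice were 6 months old, and tamoxifen is entered with 4 months for each of them, the controls too. By the methods, Rbfox2-/- mice received a short course of tamoxifen and their retinas were taken 4 months after it, not after 4 months of dosing. The labels give neither sex nor litter. The methods also name corn oil as a vehicle given by gavage, without saying which mice received it alone. Whether the controls carried Cre, and whether they received tamoxifen or corn oil, was not clear from the sources used here. Each library was poly(A)-selected RNA of the retina of 1 mouse.

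The ciliary epithelium at the rim of the eye secretes the aqueous humour, and the retinal pigment epithelium lies behind the photoreceptors, moving ions, water and retinoids between them and the choroid. Both are continuous with the retina, and either can be carried into a retinal dissection. Best1 and Best2 encode bestrophins, chloride channels of the pigment epithelium and of the non-pigmented ciliary epithelium. Kcnj13 encodes Kir7.1, an inward rectifier potassium channel of the apical membrane of the pigment epithelium, and Aqp1 a water channel that ciliary epithelium and amacrine cells use. Slc13a4 encodes a sodium-coupled sulfate transporter, Gsta3 an alpha-class glutathione transferase, and Ttr transthyretin, the carrier of thyroxine and of retinol bound to its binding protein. In whole tissue, fewer cells of a type and less RNA per cell cannot be told apart.

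On GRCm38, the assembly that mm10 names, RefSeq places Best1 at chr19:9985172-10001633 (minus strand), Best2 at chr8:85007202-85014531 (minus), Gsta3 at chr1:21240565-21265575 (plus), Slc13a4 at chr6:35267953-35308126 (minus), Aqp1 at chr6:55336299-55348555 (plus) and Kcnj13 at chr1:87384577-87394729 (minus). Kcnj13 lies inside Gigyf2 on the opposite strand, and the antisense genes Gm28836 and Gm16090 overlap Gsta3 and Ttr. The strand setting of the counting was not given in the sources used here, so reads of such pairs may not be separated. Gigyf2 itself stood between 128 and 141 CPM in the 8 libraries, with a log2 fold change of 0.04.

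RefSeq start regions (GRCm38.p6, 250 bases before to 50 bases after the start) were at hand for 5 of the 7 members, Best1, Gsta3, Slc13a4, Aqp1 and Kcnj13. The following 3 are shown, 5′ to 3′ on the strand of the gene. Slc13a4 and Gsta3 are the 2 with the widest spread between mice, 17.0-fold and 12.9-fold in CPM. Best1 is a pigment epithelium channel with a narrower spread than theirs, 1.80-fold. The letters searched, on both strands, were CACGTG and CATGTG, E-boxes of the kind bound by MITF, and TAATCC, the core letters bound by OTX2 and CRX. Capitals mark a match.
Slc13a4 (chr6:35308077-35308376, minus strand): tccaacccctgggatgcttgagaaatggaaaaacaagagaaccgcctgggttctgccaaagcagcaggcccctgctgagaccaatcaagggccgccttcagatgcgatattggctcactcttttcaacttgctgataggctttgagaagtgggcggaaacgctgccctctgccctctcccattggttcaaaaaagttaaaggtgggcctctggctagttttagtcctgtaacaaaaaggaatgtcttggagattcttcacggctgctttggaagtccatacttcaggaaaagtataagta
Gsta3 (chr1:21240335-21240634, plus strand): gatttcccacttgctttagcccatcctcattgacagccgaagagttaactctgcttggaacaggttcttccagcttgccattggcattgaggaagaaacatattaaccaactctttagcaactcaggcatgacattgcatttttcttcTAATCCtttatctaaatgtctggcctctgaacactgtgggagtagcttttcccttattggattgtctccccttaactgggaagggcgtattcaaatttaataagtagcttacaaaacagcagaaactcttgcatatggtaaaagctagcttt
Best1 (chr19:10001584-10001883, minus strand): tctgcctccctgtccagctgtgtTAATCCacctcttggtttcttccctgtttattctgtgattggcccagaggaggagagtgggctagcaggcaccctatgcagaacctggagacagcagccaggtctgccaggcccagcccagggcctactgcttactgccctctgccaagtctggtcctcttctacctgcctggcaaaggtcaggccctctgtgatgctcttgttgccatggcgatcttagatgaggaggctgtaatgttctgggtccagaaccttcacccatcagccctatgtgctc
TAATCC begins 102 bases before the start of Gsta3 and 227 bases before that of Best1, and Kcnj13 holds CATGTG, on the reverse strand, 112 bases before its start. Distances are from the start used for each region, which for Gsta3 lies slightly downstream of the first base of the gene position given above. The start regions of Slc13a4 and Aqp1 hold none of the 3 motifs. Of 32851 mouse start regions of the same length, 7.15% hold CACGTG, 14.2% CATGTG and 7.06% TAATCC. A match is a description of these letters only.

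The libraries held 160630226 to 211283591 counts. Levels are in CPM, the count of a gene relative to the TMM-normalized size of its library, and a floor of 3 counts equals 0.0144 to 0.0189 CPM, depending on the library. This floor covers counting error only. Rbfox2, the targeted gene, stood at 144 to 157 CPM in controls and 53.6 to 59.4 CPM in Rbfox2-/- mice, so every library went with its label. Gnat1, the rod transducin, was at 13082 to 16714 CPM in all 8 libraries, as a retina would have, and Rpe65, the isomerase that defines the pigment epithelium, was at 7.46 to 20.1 CPM. Among the Rbfox2-/- mice, M901 and M902 stood apart on the first principal component of all genes (40.5% of the variance). These were also the only libraries with high Xist, at 1440 and 1739 CPM against at most 2.22 CPM elsewhere, and the Y-linked Ddx3y, Uty, Kdm5d and Eif2s3y were at most 0.316 CPM in them. No control library had high Xist, so within these data whatever sets M901 and M902 apart cannot be told apart from this difference. The members' fold changes and the counts of each list are given with and without them.

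Compared per length, as the FPKM values the authors deposited, the members covered a wide range of levels. The median over the 8 mice was 66.0 FPKM for Aqp1, 35.1 for Ttr, 3.76 for Slc13a4, 2.37 for Best2, 2.32 for Gsta3, 2.26 for Kcnj13 and 0.532 for Best1. Aqp1, between 61.0 and 75.0 FPKM, lay above Ttr, between 24.8 and 73.7 FPKM, except that the highest Ttr library reached into its range. Slc13a4, Best2, Gsta3 and Kcnj13 overlapped so widely between mice that their order does not exceed the spread. Best1 ranged from 0.392 to 0.719 FPKM. It was the lowest member in 6 mice, but in M901 and M902 both Best2 (0.0755 and 0.104 FPKM) and Slc13a4 (0.426 and 0.371 FPKM) lay below it.

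**Figure D1:**
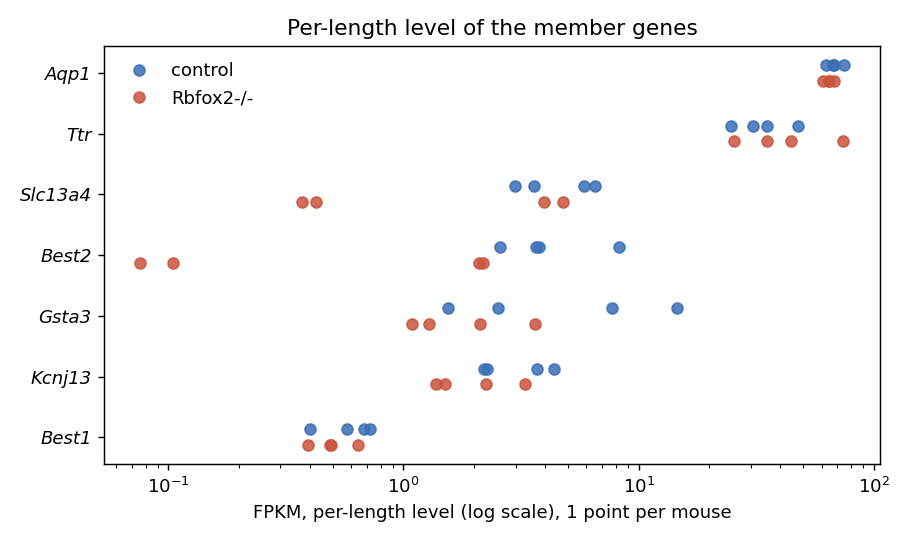
Deposited FPKM (log axis) of each member gene, 1 point per mouse, blue for the 4 control and red for the 4 Rbfox2-/- mice, in order of the median. Aqp1 and Ttr sit above 20 FPKM in every mouse, Best1 sits below 1 FPKM, and 2 Rbfox2-/- points of Best2 and Slc13a4 lie far to the left of all others of those genes.

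The first question was whether these genes differ between Rbfox2-/- and control retinas. In edgeR's quasi-likelihood test, 0 of the 7 members had an adjusted p under 0.05, and 11 of 16797 genes did (0.0655%). DESeq2 and the likelihood ratio test also called 0 members. At an unadjusted p under 0.05, 2 of 7 members, Best2 and Gsta3, were lower in Rbfox2-/- retinas and 0 higher, where 13.3% of all genes passed this level, 6.87% lower and 6.42% higher. No test was made of this count of 2 in 7. The fold change was below 0 for 6 of the 7 members, against 49.3% of all genes, and its median was -0.56 on the log2 scale, against 0.0016 for all genes. The 2 groups did not overlap for 1 member, Best2, lower in Rbfox2-/-. Over all genes 7.03% did not overlap, 3.39% lower and 3.64% higher. In a two-sided exact permutation test on log2(CPM + 1), Best2 differed by -1.89 with p = 0.0286, the smallest value that 4 mice against 4 allow, and exact p for the other 6 members lay between 0.171 and 0.4, none adjusted.

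**Figure D2:**
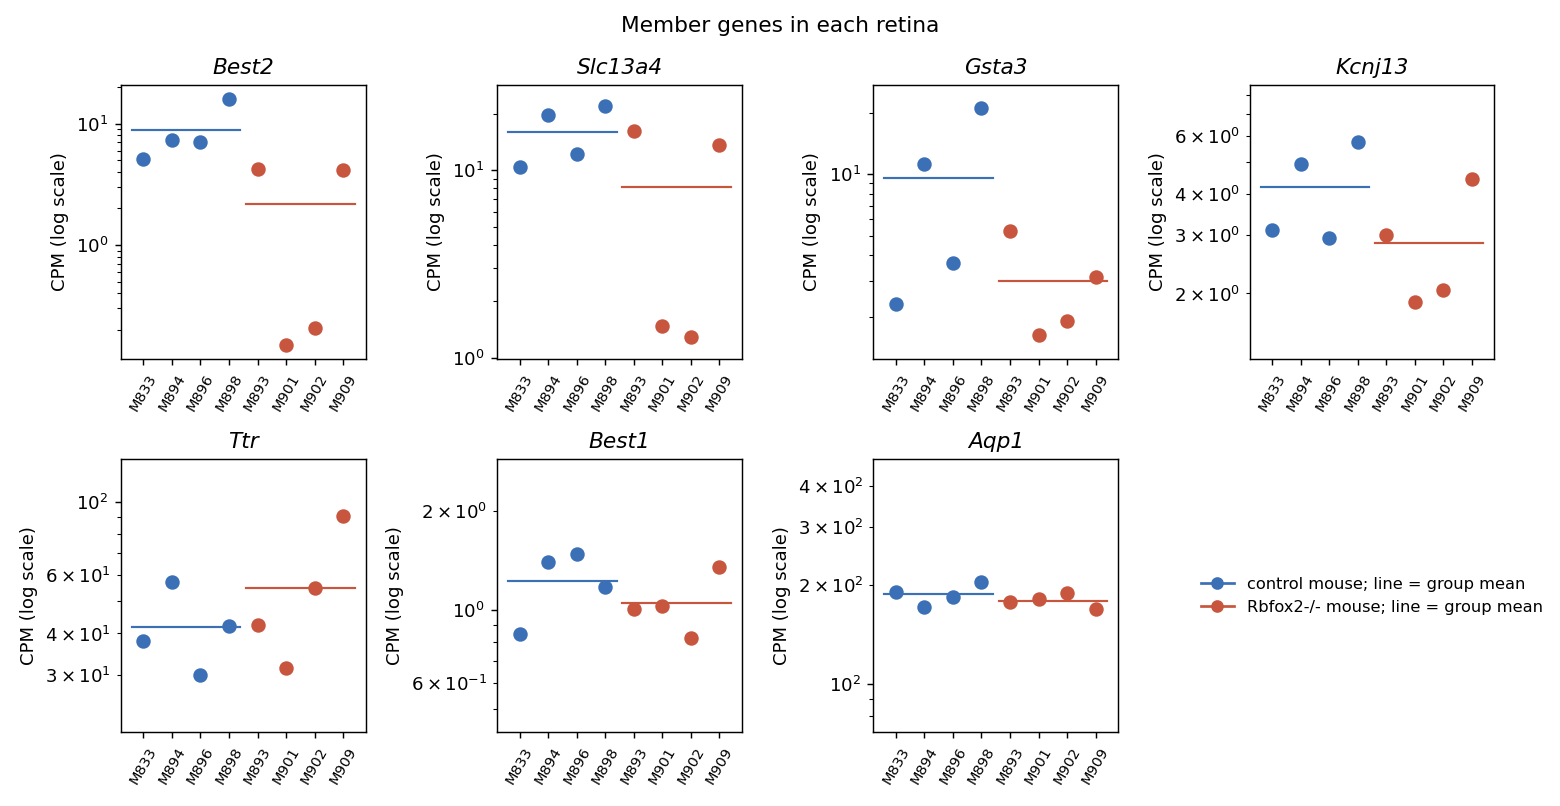
CPM of each member gene in each mouse (log axis, a separate scale in each panel), blue for control and red for Rbfox2-/-, with a line at each group's mean. M901 and M902 lie far below the other 6 mice for Best2 and Slc13a4, Gsta3 spreads 9.1-fold among the controls, M909 is the highest mouse for Ttr, and Aqp1 is nearly level.

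Among the chloride channels, Best2 was lower in Rbfox2-/- retinas by a large and uneven amount, and Best1 was not distinguishable between the groups. In the order M833, M894, M896 and M898, the control values of Best2 were 5.13, 7.31, 7.12 and 16.0 CPM. It was at 4.26, 0.150, 0.208 and 4.14 CPM in M893, M901, M902 and M909. Every Rbfox2-/- mouse lay below every control, M893 and M909 just below the lowest control, and M901 and M902 at 1.69% and 2.34% of the control mean. These low values rest on 29 and 33 counts, above the floor of 3. The log2 fold change was -2.02 ± 0.884 (SE, n = 4 per group, adjusted p = 0.369), with an unadjusted p under 0.05. Its biological coefficient of variation, 0.846, was above that of 99.79% of genes. Without M901 and M902 the fold change was -1.09 ± 0.411 (adjusted p = 0.782), still with an unadjusted p under 0.05, and leaving out the control M898 it was -1.57 (adjusted p = 0.653), with an unadjusted p above 0.05.

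Best1 was at 0.846, 1.40, 1.48 and 1.17 CPM in the controls and at 1.01, 1.03, 0.826 and 1.35 CPM in M893, M901, M902 and M909. The groups overlapped, and M901 and M902 did not stand apart. The biological coefficient of variation of Best1, 0.222, was above that of 84.66% of genes. The log2 fold change was -0.22 ± 0.207 (SE, adjusted p = 0.692), from 131 to 284 counts per library. Without M901 and M902 it was -0.06 ± 0.252 (adjusted p = 0.995).

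The ratio of the 2 bestrophins within each mouse does not depend on how libraries are scaled. Best2 counts were 6.03, 5.21, 4.79 and 13.6 times those of Best1 in the controls, in the same order. In Rbfox2-/- mice the ratio was 4.21 in M893 and 3.06 in M909, and 0.150 in M901 and 0.258 in M902, the only libraries with fewer counts for Best2 than for Best1. On the log2 scale the mean was 2.75 ± 0.691 (SD, n = 4) in controls and -0.252 ± 2.45 (SD, n = 4) in Rbfox2-/- mice. The difference of -3.00 had p = 0.0286 in a two-sided exact permutation test, the smallest value that 4 mice against 4 allow, and the ratio was lower in 4 of 4 Rbfox2-/- mice than in any control. Without M901 and M902 the difference was -0.91, with an exact p = 0.2. That comparison, of 2 mice against 4, has too few groupings for any p under 0.05, so its p cannot decide the question. Since Best2 was already known to differ in these mice, the ratio is no separate evidence for it.

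The bestrophins were read beside 20 other chloride channel genes that were tested. None had an adjusted p under 0.05 (0 of 20), and their median log2 fold change was -0.05. At an unadjusted p under 0.05, 2 were lower and 2 higher. Over all genes 6.87% were lower and 6.42% higher at this level, shares that apply to every list below. The lowest p belonged to Ano2, the calcium-activated channel of photoreceptor terminals, with 0.21 ± 0.045 (SE, adjusted p = 0.132) and every Rbfox2-/- mouse above every control. Lrrc8e, a subunit of the volume-regulated channel, was at 0.30 and did not overlap either. Ano6, a scramblase and channel, was at -0.27. Best3, the remaining bestrophin, named for its family and not by its p, was between 6.44 and 7.73 CPM in all 8 mice, with a log2 fold change of 0.04.

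The sulfate transporter Slc13a4 was at 10.4, 19.7, 12.1 and 21.9 CPM in the controls and at 16.2, 1.48, 1.29 and 13.6 CPM in M893, M901, M902 and M909. M893 and M909 lay within the controls' range, and M901 and M902 at 9.22% and 8.02% of the control mean. Between the groups the log2 fold change was -0.98 ± 0.718 (SE, adjusted p = 0.587). Without M901 and M902 it was -0.11 ± 0.285 (adjusted p = 0.992). M901 and M902 were thus the lowest mice for both Slc13a4 and Best2, while M893 and M909 lay below all controls for Best2 and among them for Slc13a4.

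Genes of sulfate transport and activation showed both directions. Of 12 tested, 2 were lower and 1 higher at an unadjusted p under 0.05, 0 passed the adjusted threshold, and the median was -0.15. Slc26a11, a lysosomal anion exchanger family member, was at 0.28 ± 0.067 (SE, adjusted p = 0.176). Slc26a2, the sulfate transporter of cartilage, was at -0.18 (adjusted p = 0.223), and Papss2, which makes the activated sulfate donor, at -0.95 (adjusted p = 0.3). Slc26a4, pendrin, was singled out after its values were seen. It was at 0.633 and 0.403 CPM in M901 and M902 and at 12.5 to 40.0 CPM in the other 6 mice.

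Gsta3 had the second of the 2 low unadjusted p, and its spread lay as much among the controls as between the groups. It was at 2.31, 11.2, 3.69 and 21.0 CPM in M833, M894, M896 and M898, a 9.1-fold range, and at 5.29, 1.62, 1.91 and 3.13 CPM in M893, M901, M902 and M909. The groups overlapped, since the controls M833 and M896 lay below M893. The change on the log2 scale was -1.67 ± 0.644 (SE, adjusted p = 0.322). Leaving out the control M898 gave -0.93 (adjusted p = 0.652), and leaving out M901 and M902 gave -1.19 ± 0.797 (adjusted p = 0.914), both with an unadjusted p above 0.05. The spread among controls, on the log2(CPM + 1) scale, was wider than for 99.95% of genes. Gsta3 belongs to a family with close copies, and reads that match several of them would not enter a table of uniquely mapped reads, so its level is uncertain.

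The other glutathione transferases went both ways. Of 19 tested, 6 were lower and 2 higher at an unadjusted p under 0.05, 0 had an adjusted p under 0.05, and the median was -0.08. Gstz1, of tyrosine breakdown, was at -0.21 ± 0.057 (SE, adjusted p = 0.217), with no overlap between the groups. Gstm5 was at -0.15 and Gstt3 at -0.35. Gsto1, an omega-class enzyme singled out after its values were seen, was at 131 CPM in M909 and at 15.7 to 21.3 CPM in the other 7 mice. Gstm2, a mu-class enzyme singled out in the same way, was at 0.150 and 0.227 CPM in M901 and M902 and at 1.39 to 2.68 CPM in the other 6.

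The water channel Aqp1 was the most abundant member and the most even. It was at 190, 172, 183 and 204 CPM in the controls and at 177, 181, 189 and 169 CPM in M893, M901, M902 and M909. The groups overlapped, and M901 and M902 lay in the middle of all mice. The log2 fold change was -0.06 ± 0.054 (SE, adjusted p = 0.646), and the biological coefficient of variation, 0.063, was above that of only 25.95% of genes. Without M901 and M902 the fold change was -0.11 ± 0.068 (adjusted p = 0.909). Of 6 other aquaporins tested, 1 passed an unadjusted p under 0.05 (Aqp9, 0.46, adjusted p = 0.322) and 0 the adjusted threshold, with a median of 0.04. Aqp6 was at 0.18 and Aqp11 at -0.08.

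Kcnj13 was at 3.11, 4.95, 2.94 and 5.78 CPM in the controls and at 3.02, 1.88, 2.05 and 4.45 CPM in M893, M901, M902 and M909. M901 and M902 were the 2 lowest mice, at 44.9% and 48.8% of the control mean, and the other 2 lay within the controls' range. Its log2 fold change was -0.56 ± 0.302 (SE, adjusted p = 0.455), and -0.17 ± 0.297 without M901 and M902. Leaving out M909 gave -0.86 (adjusted p = 0.172), with an unadjusted p under 0.05. Of 12 other inward rectifiers tested, 2 were lower at an unadjusted p under 0.05, 0 passed the adjusted threshold, and the median was -0.01. These were Kcnj2 (-0.18, adjusted p = 0.268, no overlap) and Kcnj3 (-0.17, adjusted p = 0.371), and Kcnj8 followed with -0.31. Kcnj10, the channel of Müller glia, named after its values were seen, was at 0.01.

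Ttr was the only member with a fold change above 0, and this rested on 1 mouse. It was at 38.1, 57.5, 30.0 and 42.2 CPM in the controls and at 42.5, 31.5, 55.0 and 90.6 CPM in M893, M901, M902 and M909. M909 was the highest of all mice and the other 3 lay within the controls' range. The log2 fold change was 0.39 ± 0.298 (SE, adjusted p = 0.603), 0.04 without M909 (adjusted p = 0.952) and 0.66 ± 0.303 without M901 and M902 (adjusted p = 0.848). Of 10 genes of retinol and thyroid hormone handling, 1 was lower at an unadjusted p under 0.05, 0 passed the adjusted threshold, and the median was -0.03. Dio3, which inactivates thyroid hormone, was at 3.09 to 5.01 CPM in controls and at 2.40, 0.602, 0.315 and 2.39 CPM in M893, M901, M902 and M909, without overlap (-1.41 ± 0.537, SE, adjusted p = 0.32). Rbp4, the retinol-binding protein that transthyretin carries, was at 0.29 (adjusted p = 0.504).

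**Figure D3:**
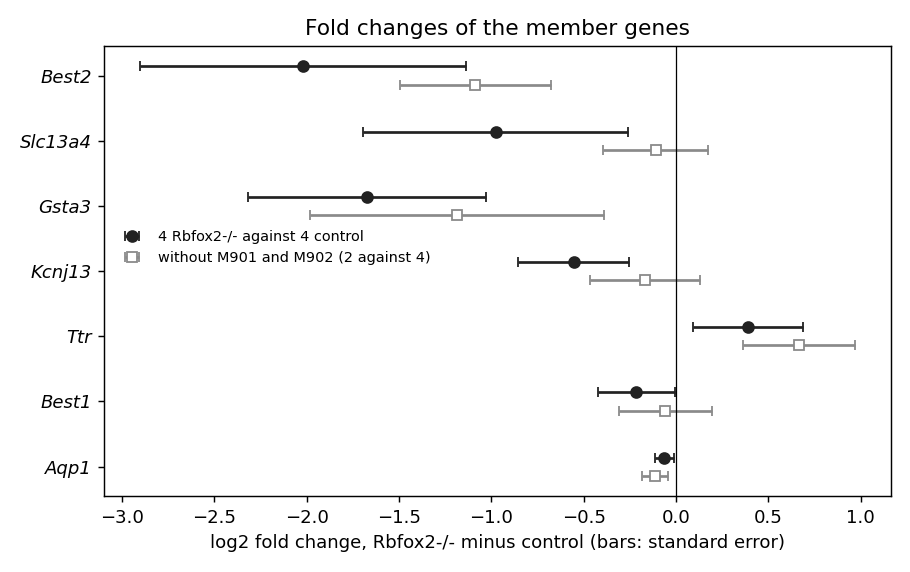
Log2 fold change, Rbfox2-/- minus control, of each member gene with its standard error, for all 8 mice (black circles) and without M901 and M902 (grey squares). Slc13a4 is at -0.98 with all mice and -0.11 without the 2, Best2 at -2.02 and -1.09, and Ttr is the only gene above 0 in both.

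The members did not share 1 profile across the mice. Likeness was measured as the root mean square difference of log2(CPM + 1), each gene centred on its own mean over the 8 libraries, and is given as a description. Best1 and Aqp1, with the narrowest ranges of the members on this scale (0.444 and 0.264), differed by 0.207 and Best2 and Slc13a4 by 0.398. The pseudocount of 1 narrows the spread of Best1, which lies near 1 CPM. Gsta3 was 0.689 from Kcnj13, its nearest member, 0.768 from Best2 and 0.830 from Slc13a4. Best1 and Best2, of the same family, differed by 1.19.

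For the 3 members whose libraries spanned more than 2 log2 units, the 5 nearest other genes were found by the same measure. Among those nearest to Slc13a4 were Cldn2 (0.166), a tight junction claudin that passes cations, Ogn (0.169) and Fmod (0.211), small proteoglycans of connective tissue, and F5 (0.200), coagulation factor V. Those nearest to Best2 were Cldn2 again (0.301), the matrix proteoglycan Vcan (0.347), the enkephalin precursor Penk (0.352), the extracellular superoxide dismutase Sod3 (0.388) and the transporter Slc16a12 (0.398). Cldn2 was at 6.11 to 16.3 CPM in controls, at 8.31 and 8.28 in M893 and M909, and at 0.275 and 0.448 CPM in M901 and M902. Those nearest to Gsta3 were Islr (0.202), Mlana (0.228), a melanosome protein, Mlph (0.230), which links melanosomes to myosin, Tgm1 (0.258) and Tyr (0.271), tyrosinase. All 8 mice entered each measure, and none of the 14 nearest genes had an adjusted p under 0.05 (from 0.297 to 0.673).

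**Figure D4:**
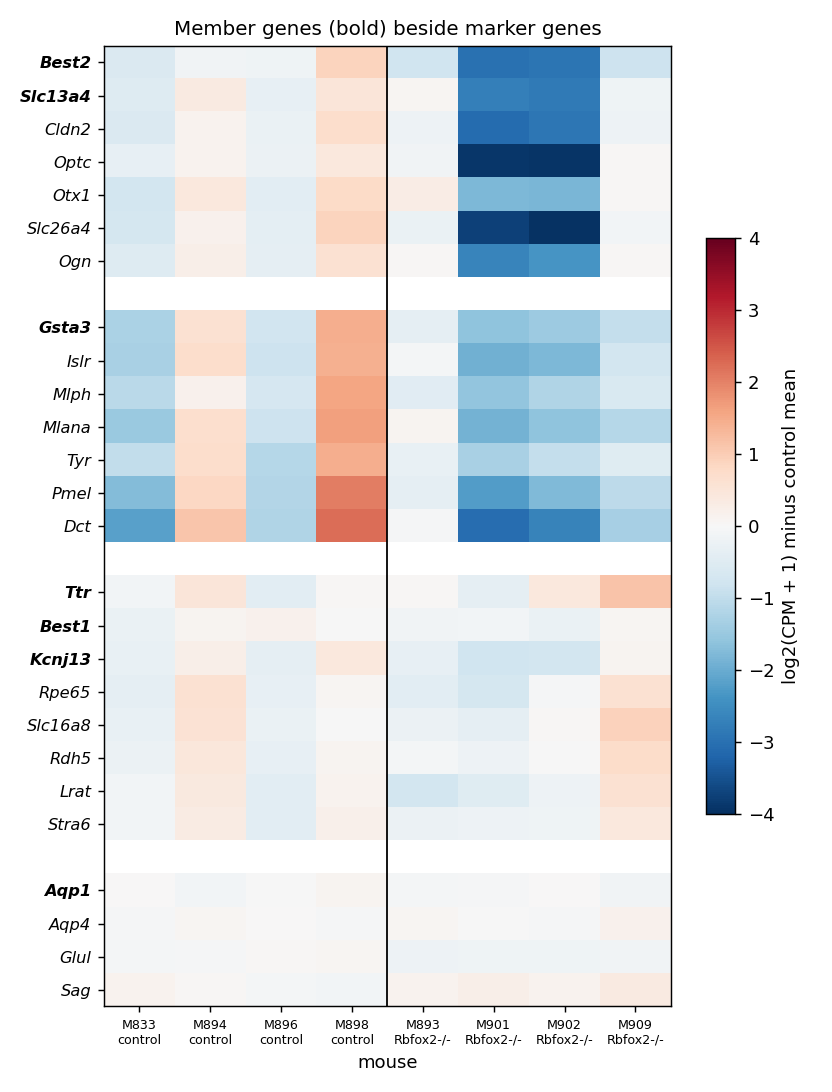
Log2(CPM + 1) minus the control mean (colour, blue lower and red higher, saturated at 4) for member genes, in bold, beside nearest genes and marker genes picked for display after their values were seen, in each of the 4 control and 4 Rbfox2-/- mice. The block of Best2 and Slc13a4 is dark blue in M901 and M902 only. That of Gsta3 is red in M894 and M898 and blue in M833, M896, M901, M902 and M909. Ttr and most of the pigment epithelium markers shown are reddest in M909 and M894 and Kcnj13 in M898. The block of Aqp1 is close to 0. Slc39a12, Cldn19 and Col2a1 are not among the genes shown.

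Markers of the cell types that a retinal dissection can hold were read in the same libraries. Beside their counts at an unadjusted p under 0.05 stand the shares of all genes, 6.87% lower and 6.42% higher. Of 8 ciliary epithelium markers 1 was lower at an unadjusted p under 0.05, Msx1 (-1.28, adjusted p = 0.347), and 0 passed the adjusted threshold, with a median of -0.58 and all 8 fold changes below 0. Zic1 was at -0.57 and Zic2 at -0.60. Their summed level was 224 to 294 CPM in controls, 248 and 257 CPM in M893 and M909, 124 in M901 and 167 in M902. Optc, opticin, and Otx1, singled out after their values were seen, were at 36.0 to 61.0 and 1.72 to 6.66 CPM in the other 6 mice and at about 2.1 and 0.3 CPM in M901 and M902 (Optc 2.11 and 2.04, Otx1 0.316 and 0.284). Not every marker was so low there: Col2a1 was at 64.7 and 80.0 CPM in M901 and M902 and at 79.7 to 104 CPM in the other 6. M901 and M902 are the 2 mice in which Best2 and Slc13a4 were lowest. The part of ciliary tissue in those values was not tested.

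Aqueous humour secretion genes showed that pattern in part. Of 17 tested, 2 were lower at an unadjusted p under 0.05, 0 passed the adjusted threshold, and the median was -0.05. Car14, a carbonic anhydrase, was at 75.7 to 101 CPM in controls and 60.03 to 68.6 CPM in Rbfox2-/- mice, without overlap (-0.44 ± 0.0803, SE, adjusted p = 0.0862), and M901 and M902 did not stand apart from M893. Slc4a4, a bicarbonate cotransporter, was at -1.01 (adjusted p = 0.233) and Slc4a2, an anion exchanger, at 0.12. The connexin Gja1, singled out after its values were seen, was at 2.67 and 3.20 CPM in M901 and M902, below the other 6 mice (14.1 to 94.8 CPM). Aqp4 and Car2, chosen in the same way, differed little between any mice (162 to 190 and 477 to 524 CPM).

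Fibroblast and meninges markers summed to 35.3 to 60.4 CPM in controls, 48.9 and 46.4 CPM in M893 and M909, and 11.7 and 14.2 CPM in M901 and M902. Of 8 tested, 2 were lower at an unadjusted p under 0.05 and 0 at an adjusted p under 0.05, with a median of -0.79. Mgp, matrix Gla protein, was at 3.77 to 5.89 CPM in controls and 1.98 to 2.63 CPM in Rbfox2-/- mice, without overlap (-1.0028 ± 0.147, SE, adjusted p = 0.0568). Dcn was at -0.85 and Lum at -2.04. The summed levels of this list and of the ciliary one were lowest in the same 2 mice as Slc13a4, though not every gene of them was: Mgp was at 2.20 and 2.44 CPM in M901 and M902 and at 2.63 and 1.98 CPM in M893 and M909. The parts of these tissues in the Slc13a4 values were not tested.

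Melanin synthesis markers summed to 21.2, 165, 34.5 and 373 CPM in M833, M894, M896 and M898 and to 76.1, 10.8, 15.5 and 36.7 CPM in M893, M901, M902 and M909. Ordered by this sum, the mice fell in the same order as by Gsta3, except that M896 and M909 changed places. Of 7 markers tested 3 were lower at an unadjusted p under 0.05, 0 passed the adjusted threshold, and the median was -1.91. Pmel was at -2.13 ± 0.848 (SE, adjusted p = 0.338), Tyrp1 at -2.03 and Dct at -2.25. Of the 7, 0 had a p under 0.05 without M901 and M902, and 0 also when M894, M898, M901, M902 or M909 alone was left out, against 5 without M833 and 6 without M896. Smooth muscle markers also summed highest in M898 (25.4 CPM, against 3.97 to 11.7 in the other 7 mice). Of 4 tested, 0 passed the adjusted threshold, with a median of -0.89. At an unadjusted p under 0.05, 4 of 4 were lower, against 6.87% of all genes. This became 0 of 4 without M901 and M902, and 2 of 4 when M894, M898, M901 or M902 alone was left out. The lowest p were those of Myh11 (-1.62), Acta2 (-1.17) and Des (-0.61). The part of pigmented or muscle tissue in the spread of Gsta3 was not tested.

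No marker of the retinal pigment epithelium passed either threshold. Of 11 tested, 0 had an unadjusted p under 0.05 in edgeR, and the median was -0.06. This count was 0 without M901 and M902, 1 when M833, M896 or M893 alone was left out, and 2 without M909. The lowest p were those of Slc39a12 (-0.56, adjusted p = 0.439), Cldn19 (-0.86) and Mitf (-0.11). Their sum was 79.5, 117, 74.2 and 99.97 CPM in M833, M894, M896 and M898 and 77.5, 67.7, 81.0 and 124 CPM in M893, M901, M902 and M909. M909 and M894 were the highest for this sum and for Ttr alike. M909 also stood apart by surface epithelium keratins, which summed to 96.9 CPM there and to 1.36 to 7.99 CPM elsewhere. Of these 6 genes 5 were higher at an unadjusted p under 0.05 and 0 at an adjusted p under 0.05, with a median of 3.80 (Krt5 4.08, Krt4 5.23, Krt15 4.26). What part either tissue had in the Ttr value of M909 was not tested.

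In the remaining lists, 1 of 5 lens fibre genes tested was lower at an unadjusted p under 0.05, Bfsp2 (-1.10), with a median of 0.10 and Lgsn at 0.55, all at low levels (sums of 1.28 to 2.55 CPM). Of 3 endothelial genes 1 was lower at an unadjusted p under 0.05, Pecam1 (-0.25), with a median of -0.25. Cdh5 was at -0.36 and Cldn5 at 0.02, neither at this level. Of 9 neural retina genes 1 was lower and 3 higher at an unadjusted p under 0.05, with a median of 0.04. Glul, glutamine synthetase of Müller glia, was at -0.17 (adjusted p = 0.221), and Gnat1 and Sag, of rod phototransduction, at 0.19 and 0.22. None of these 3 lists had a gene with an adjusted p under 0.05.

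Without M901 and M902, which leaves 2 Rbfox2-/- mice against 4 controls, 6.01% of all genes had an unadjusted p under 0.05, against 13.3% with all mice. The number of genes at this level went from 8 to 2 for glutathione transferases, from 4 to 1 for chloride channels, from 4 to 3 for neural retina, from 4 to 0 for smooth muscle and from 3 to 0 for melanin synthesis. It went from 2 to 1 for aqueous humour secretion, for inward rectifiers and for fibroblast and meninges genes, and from 1 to 0 for ciliary epithelium, lens fibre and endothelium. It was the same with and without them for sulfate transport (3), surface epithelium (5), aquaporins (1), retinol and thyroid hormone handling (1) and pigment epithelium (0).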

How the data were processed

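Per the labels and the methods, poly(A)-selected retinal RNA of 8 mice was sequenced as paired reads, base-called with CASAVA 1.8.2 and aligned to mm10. The authors deposited fragment counts per gene (STAR, unique reads, HTSeq, with RefSeq and Ensembl both named as annotation) and FPKM values, normalized by library size and gene length. The deposited table also holds 16 columns of the authors' adjusted values and comparisons per mouse, and fold changes and p-values, which were not used.

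Counts were filtered (filterByExpr), TMM-normalized and tested with edgeR 4.0.16 quasi-likelihood (R 4.3.3), Benjamini-Hochberg adjusted over 16797 genes, without covariates, after a check on simulated counts. CPM were computed from counts. FPKM served for levels between genes. Profiles used a pseudocount of 1, as did the bestrophin ratio. P-values set the difference between the groups against the spread between mice, and 4 mice per group limit precision.

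Alternatives were DESeq2 1.42.0, the likelihood ratio test, limma-voom (limma 3.58.1), RLE and upper-quartile scaling, other filters and left-out mice. Named genes were the members, of each list those past the adjusted threshold or otherwise up to 3 with the lowest p, the 5 nearest genes, and genes said to be singled out or named for another reason. Some genes under this rule are not reported here. The members and the 17 lists (including the sex-linked genes) were chosen with earlier results of these data known.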

Additional observations from a re-analysis of the deposited data

How the results depend on the processing

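No paired analysis was possible because the labels name each mouse and give no number shared between the groups. The fold change of each member kept its sign, and 0 members had an adjusted p under 0.05, under every alternative run: DESeq2, the likelihood ratio test, limma-voom, RLE and upper-quartile scaling, no filter, at least 10 counts in every library, each mouse left out in turn, and M901 and M902 left out together. The range was -3.17 to -1.09 for Best2, -2.10 to -0.93 for Gsta3, -1.70 to -0.11 for Slc13a4, -0.86 to -0.17 for Kcnj13, -0.36 to -0.06 for Best1, -0.11 to -0.02 for Aqp1 and 0.04 to 0.66 for Ttr.

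Of the 2 members with an unadjusted p under 0.05, 1 had one with DESeq2 (Gsta3) and 1 without M901 and M902 (Best2), and with each mouse left out in turn the number ran from 0 (without M894, M898, M901 or M902) to 3 (without M909). With limma-voom Best2 and Slc13a4 passed, and Gsta3 did not. The Best2 to Best1 difference was -0.91 without M901 and M902 (exact p = 0.2, where too few groupings remain for any p under 0.05). It was -3.78 to -2.17 with each mouse left out. Its exact permutation p was 0.114 to 0.171 without a control and 0.0286 without an Rbfox2-/- mouse. Both kinds of omission leave the same number of groupings.

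Over all genes the adjusted threshold was passed by 11 genes, by 465 with DESeq2, 164 with the likelihood ratio test, 1 without M901 and M902, and 5 to 35 with each mouse left out. In the lists, where 0 passed, DESeq2 called 1 gene each in aqueous humour secretion, chloride channels, glutathione transferases, fibroblast and meninges and surface epithelium, 2 in sulfate transport and 3 in neural retina. The likelihood ratio test called 1 each in aqueous humour secretion, chloride channels and fibroblast and meninges, and 3 in surface epithelium. Without the control M833, 1 fibroblast and meninges gene passed (otherwise 0). The cause of these differences was not tested.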
